A study of Mus musculus with 6 samples.

Results

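The 10 genes described here encode the pore-forming subunits of AMPA-type glutamate receptors (Gria1, Gria2, Gria3 and Gria4) and the transmembrane AMPA receptor regulatory proteins, or TARPs (Cacng2, Cacng3, Cacng4, Cacng5, Cacng7 and Cacng8). They were found in the count tables by symbol, as the members of these 2 gene families. All 10 had a row among the 24411 genes counted, and all 10 were among the 15846 that passed the filter on low counts. RNA was sequenced in bulk from mouse tissue taken at postnatal day 18, in 3 wild-type libraries (WT) and 3 libraries from animals that lack a large enhancer of Atoh7 (enhancer KO). No other allele or treatment is labelled in either group. The sources used here do not give strain, zygosity, sex or the number of founder lines, or say whether animals were pooled. The labels call the replicates independent and name no animals, so p-values measure the spread between these libraries, which may be technical.

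AMPA receptors carry most fast excitatory transmission in the brain. They are tetramers of 4 kinds of subunit, and receptors that contain the Gria2 product (GluA2) in its edited form let little calcium through. TARPs bind the receptor, bring it to the cell surface and the synapse, and slow its closing. In the cerebellum, granule neurons are known to depend on Cacng2 (stargazin) for synaptic AMPA receptors, Bergmann glia are known for receptors built from Gria1 and Gria4 products, and Cacng7 is known from Purkinje and granule neurons.

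The coding sequences show how the members differ. The stretches of 63 bases below come from the coding exons of GENCODE mouse release 21 on mm10 and run 5′ to 3′ along the transcript. They cover the loop that lines the channel pore in each AMPA receptor subunit. Capitals mark the glutamine codon at which ADAR enzymes edit the Gria2 transcript, so that the Gria2 product carries arginine there. That codon is number 600 of the Gria1 reading frame, 607 of Gria2, 612 of Gria3 and 608 of Gria4, counted from the start codon.
Gria1: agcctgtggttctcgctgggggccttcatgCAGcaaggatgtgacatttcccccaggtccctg
Gria2: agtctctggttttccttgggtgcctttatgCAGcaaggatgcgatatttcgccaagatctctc
Gria3: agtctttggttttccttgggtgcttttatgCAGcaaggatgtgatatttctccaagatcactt
Gria4: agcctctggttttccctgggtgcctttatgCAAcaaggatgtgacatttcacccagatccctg

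Over these 63 bases Gria2 differed from Gria1 at 14 positions, from Gria3 at 6 and from Gria4 at 9. The genome thus encodes glutamine at this codon in all 4 genes. Gene-level counts hold no measure of editing or of the alternatively spliced flip and flop exons.

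The TARPs fall into 2 types by sequence. The last 45 bases of each reading frame are shown with the final 4 codons before the stop codon in capitals, where type I TARPs end in a motif that binds the PDZ domains of synaptic scaffold proteins such as PSD-95.
Cacng2: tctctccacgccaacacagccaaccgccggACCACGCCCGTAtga
Cacng3: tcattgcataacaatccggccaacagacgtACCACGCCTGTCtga
Cacng4: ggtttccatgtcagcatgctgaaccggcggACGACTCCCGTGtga
Cacng8: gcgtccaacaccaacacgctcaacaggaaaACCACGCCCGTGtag
Cacng5: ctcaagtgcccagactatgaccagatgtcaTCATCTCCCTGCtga
Cacng7: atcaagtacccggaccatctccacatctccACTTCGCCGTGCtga

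The final 4 codons of Cacng2, Cacng3, Cacng4 and Cacng8, the type I genes, encode the same residues in translation. Those of the type II genes Cacng5 and Cacng7 encode a series that is not the same, though single residues are shared. Over the 45 bases, Cacng2 differed at 14 positions from Cacng3, 15 from Cacng4, 17 from Cacng8, 30 from Cacng5 and 27 from Cacng7.

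The genes lie on 6 chromosomes of mm10, and each is a protein-coding gene in the annotation. Gria1 lies at chr11:57011387-57330244 on the plus strand, Gria2 at chr3:80681450-80802835 on the minus strand, Gria3 at chrX:41400854-41678601 on the plus strand and Gria4 at chr9:4417896-4796234 on the minus strand. Cacng2 lies at chr15:77991748-78120028 and Cacng3 at chr7:122670492-122769393. Cacng4 and Cacng5 are neighbours at chr11:107732357-107794557 and chr11:107874605-107915055, and Cacng7 and Cacng8 at chr7:3332955-3368221 and chr7:3390683-3415648. The joined exons of Gria2 measure 15.5 kb, against 6.04 kb for Gria1, 9.86 kb for Gria3 and 6.31 kb for Gria4.

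The tissue fields of the labels read retina, while the protocol and design name the cerebellum. Of 8 photoreceptor markers, 2 passed the filter on low counts. Gnat1, the rod transducin gene, did not exceed 0.130 CPM (reads per 1000000, scaled between libraries by the TMM method) in any library, and Sag, the rod arrestin gene, did not exceed 0.555 CPM. The granule neuron gene Fat2 lay at 550 to 621 CPM in WT, against 228 to 306 CPM in the enhancer KO group. Atoh7 itself gave 1.94, 2.05 and 2.13 CPM in the WT libraries and 0.744, 0.858 and 0.695 CPM in the enhancer KO libraries (log2 fold change -1.41 ± 0.205, SE, with edgeR adjusted p = 0.000353), so that no enhancer KO library reached a WT library. Reads in genes numbered 22812075 to 33076111 per WT library and 36849747 to 40858310 per enhancer KO library. Reads that fell outside annotated exons made up a share that differed between the groups, 31.1% to 34.1% in WT and 16.8% to 18.2% in enhancer KO. WT replicate 2 stood apart, with 20.4% of its reads unmapped against 7.79% to 8.32% in the other libraries, and results that change without it are said to do so. These differences move with genotype, and their part in the results below was not tested, except where a fit bears on it.

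**Figure D1:**
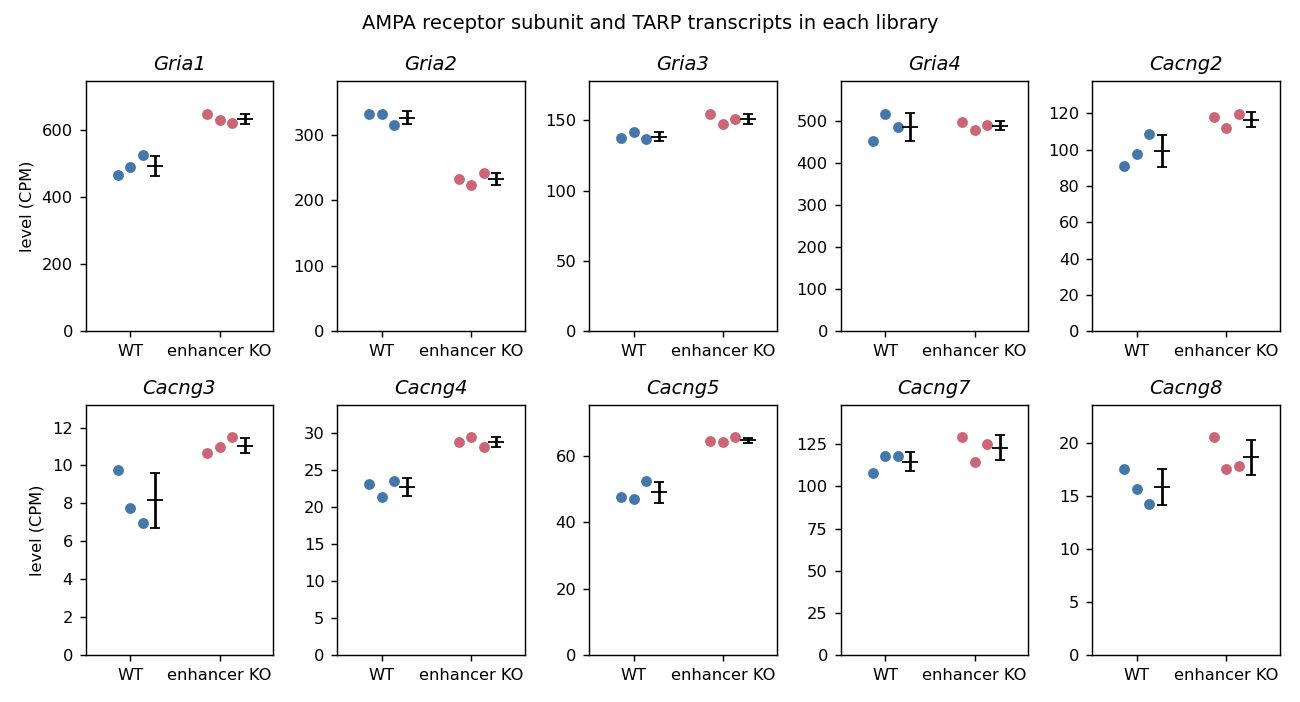
Level of each gene (y axis, CPM, from 0) in each of the 3 WT and 3 enhancer KO libraries (points, replicates 1 to 3 from left to right), with the mean and SD in black. The enhancer KO points lie below the WT points for Gria2 and above them for Gria1, Gria3, Cacng2, Cacng3, Cacng4 and Cacng5, and the groups overlap for Gria4, Cacng7 and Cacng8.

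Gria2 was lower in enhancer KO, Gria1 and Gria3 were higher, and Gria4 did not pass the test. Of the TARP genes 4 were higher, Cacng2, Cacng3, Cacng4 and Cacng5, and none was lower. Counted together, 6 of the 10 members rose and 1 fell in edgeR's quasi-likelihood test at an adjusted p under 0.05, that is 7 of 10. Of all 15846 genes tested, 31.3% were called, 13.4% as higher and 17.9% as lower. Lower genes thus made up 57.3% of all calls, but 43.8% with library size alone and 44.3% once a trend over gene structure, described for Gria2, was taken out. Gria2 was the 1 member called lower under both. The median log2 fold change (enhancer KO over WT) was 0.29 for the 6 TARP genes and 0.07 for the 4 subunit genes, against 0.0006 for all genes tested. WT and enhancer KO libraries did not overlap for 7 members, with 6 higher and 1 lower. Of all genes tested 44.8% did not overlap, 20.5% with enhancer KO higher and 24.3% with it lower.

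Gria2, whose product limits the calcium permeability of the receptor, had 332, 333 and 315 CPM in the WT libraries. The enhancer KO libraries gave 232, 224 and 242 CPM. Every enhancer KO library lay well below every WT library. The mean went from 327 ± 9.65 to 233 ± 8.92 CPM (SD, n = 3), a fall of 28.7% in the fit (log2 fold change -0.49 ± 0.0442, SE; edgeR adjusted p = 1.24e-05). Of the genes tested, 161 had a smaller p.
When a smooth trend over GC content, intron length and spliced length was taken out of each library, the log2 fold change of Gria2 was -0.29 and still passed (edgeR adjusted p = 0.000410). Gria2 has the longest joined exons of the 10 genes and, with 36.8%, the lowest GC content of their longest transcripts.

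Gria1 moved the other way. Its product, GluA1, forms calcium-permeable receptors when GluA2 is absent. The 3 WT libraries gave 468, 491 and 527 CPM and the 3 enhancer KO libraries 650, 631 and 621 CPM. The groups were apart by 94.7 CPM between the highest WT and the lowest enhancer KO library. The mean rose from 495 ± 29.8 to 634 ± 14.5 CPM (SD, n = 3), or 1.28-fold in the fit (log2 fold change 0.36 ± 0.0502, SE; edgeR adjusted p = 0.000282).

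Gria4, which encodes a fast-gating subunit, stood at much the same level in both groups. Values were 452, 517 and 486 CPM in the WT libraries and 498, 479 and 489 CPM in the enhancer KO libraries, so that the enhancer KO libraries lay within the WT range. It differed by 0.01 ± 0.0524 on the log2 scale (SE), which did not pass (edgeR adjusted p = 0.887), and by -0.04 without WT replicate 1 and 0.07 without WT replicate 2.

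Gria3, the X-linked subunit gene, showed a small rise. It gave 137, 142 and 136 CPM in the WT libraries and 155, 147 and 151 CPM in the enhancer KO libraries. The groups did not overlap, though the nearest libraries were only 5.39 CPM apart. The rise was 0.13 ± 0.0401 on the log2 scale (SE), with edgeR adjusted p = 0.0322. It no longer passed without WT replicate 3 (edgeR adjusted p = 0.0998) or enhancer KO replicate 1, 2 or 3 (0.106, 0.0524 and 0.0644), or with library size alone (0.0561). With the gene structure trend taken out it was 0.20 (edgeR adjusted p = 0.00252). Xist, the RNA of the inactive X chromosome, had 1054 CPM in WT replicate 1 and 0.743 to 1.37 CPM in the other 5 libraries, and the Y-linked gene Ddx3y had 0 reads in WT replicate 1 alone. Gria3 in WT replicate 1 lay between its values in WT replicates 2 and 3.

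**Figure D2:**
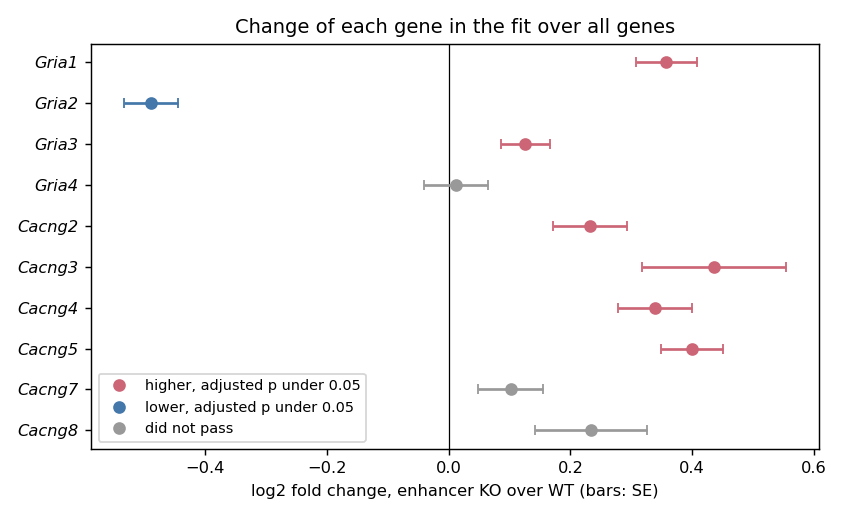
Log2 fold change of each gene, enhancer KO over WT (x axis), with its SE as a bar, from edgeR's quasi-likelihood fit over 15846 genes. Gria2 stands alone to the left at -0.49, and the other 9 genes lie at or to the right of 0, up to 0.44 for Cacng3.

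The balance of the subunits differed between the groups. Gria1 had 1.41, 1.47 and 1.67 reads per Gria2 read in the WT libraries. In the enhancer KO libraries it had 2.80, 2.82 and 2.57. The mean ratio was 1.52 ± 0.135 in WT and 2.73 ± 0.137 in enhancer KO (SD, n = 3), or 1.80 times the WT value. Gria4 had 1.48 ± 0.107 reads per Gria2 read in WT and 2.10 ± 0.0670 in enhancer KO, and Gria3 had 0.424 ± 0.00955 and 0.650 ± 0.0215 (SD, n = 3). None of these 3 ratios overlapped between the groups, and library scaling cancels in them. All 3 share Gria2, whose levels did not overlap, so they restate the single-gene results and add no separate support. A trend over gene structure does not cancel. Once it was taken out, the log2 fold changes were 0.34 for Gria1 and -0.29 for Gria2. Summed over the 4 subunits, the level was 1388 to 1482 CPM in WT, against 1481 to 1535 CPM in the enhancer KO group, and these ranges met.

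Levels of different genes were compared per kilobase of joined exons. On that scale, Gria1 made up 42.3% ± 1.59 of the 4 subunits in WT and 49.3% ± 0.591 in enhancer KO (SD, n = 3). Gria4 made up 39.6% ± 1.36 and 36.4% ± 0.264, Gria2 10.9% ± 0.677 and 7.04% ± 0.278, and Gria3 7.26% ± 0.288 and 7.20% ± 0.0691. Only the share of Gria3 overlapped between the groups. Shares of a sum are tied to each other, so a lower share need not be a lower level. Gria4 itself had a log2 fold change of 0.01 and did not pass. The shares depend on the transcript lengths assumed, since no source used here gives the annotation behind the counts. With the longest transcript of each gene in place of its joined exons, Gria2 made up 13.3% ± 0.778 in WT and 8.78% ± 0.334 in enhancer KO (SD, n = 3).

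**Figure D3:**
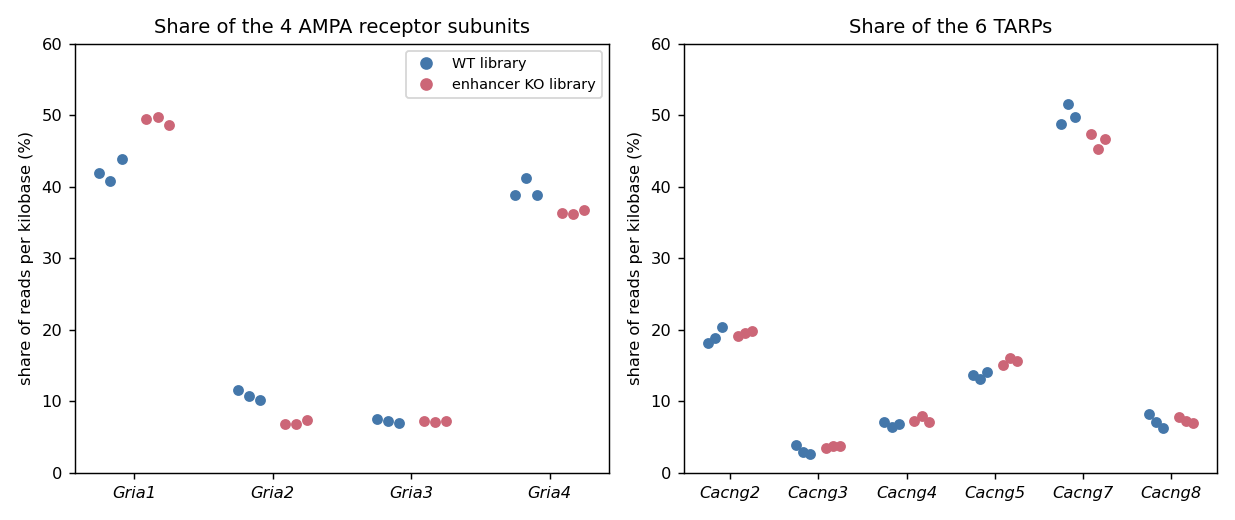
Share of each gene in the summed reads per kilobase of the 4 AMPA receptor subunits (left) and of the 6 TARPs (right), in percent, with a point for each WT and enhancer KO library. Gria1 goes from 42.3% to 49.3% on average and Gria2 from 10.9% to 7.04%, while Cacng7 is the most abundant TARP per kilobase in every library.

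Among type I TARPs, Cacng2 had the highest level. The gene encodes stargazin, the TARP whose loss causes the ataxic stargazer phenotype in mice. It gave 91.1, 97.6 and 109 CPM in the WT libraries and 118, 112 and 120 CPM in the enhancer KO libraries. WT replicate 3 came within 3.13 CPM of enhancer KO replicate 2, and the groups did not overlap. The mean rose from 99.1 ± 8.99 to 116 ± 4.06 CPM (SD, n = 3; log2 fold change 0.23 ± 0.0607, SE; edgeR adjusted p = 0.0136). Against WT replicate 1 as the lone WT library it was 0.38. With WT replicate 1 left out it was 0.17 and still passed (edgeR adjusted p = 0.0264).

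Cacng4 gave 23.2, 21.3 and 23.6 CPM in the WT libraries and 28.8, 29.4 and 28.1 CPM in the enhancer KO libraries. Each enhancer KO library was above each WT library, and the rise was 0.34 ± 0.0610 on the log2 scale (SE), with edgeR adjusted p = 0.00141. Cacng3, known mainly from the cerebral cortex, had the fewest reads of the 10 genes, 159 to 316 per WT library and 402 to 479 per enhancer KO library. Its levels were 9.74, 7.76 and 6.95 CPM in the WT libraries and 10.7, 11.0 and 11.5 CPM in the enhancer KO libraries. WT replicate 1 was the highest WT library and lay 0.942 CPM under the lowest enhancer KO library. Its log2 fold change, 0.44 ± 0.118 (SE; edgeR adjusted p = 0.0146), was the largest of the rises and had the largest SE of the 10. Without WT replicate 3 it was 0.32 and did not pass (edgeR adjusted p = 0.0696). Against WT replicate 1 alone, with its spread taken from the enhancer KO libraries, it was 0.20 (edgeR adjusted p = 0.304).

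Cacng8, known mainly from the hippocampus, showed values of 17.6, 15.7 and 14.3 CPM in the WT libraries and 20.6, 17.6 and 17.9 CPM in the enhancer KO libraries. The highest WT library equalled the lowest enhancer KO library to 3 digits. The log2 fold change of 0.23 ± 0.0915 (SE) did not pass (edgeR adjusted p = 0.0718). It passed without WT replicate 1, at 0.32 (edgeR adjusted p = 0.0180), and with the replicate number as a block (0.0366). It also passed with library size alone (0.0349), with no filter on low counts (0.0431) and with the unstranded column (0.0476). In the other 13 of 18 alternatives it did not pass. Without WT replicate 3 it was 0.16 and without enhancer KO replicate 1 it was 0.17 (edgeR adjusted p = 0.270 and 0.226). Against WT replicate 1 alone it was 0.11.

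The type II genes differed from each other in level and in change. Cacng5, known in the cerebellum from Bergmann glia, gave 47.5, 47.0 and 52.5 CPM in the WT libraries and 64.5, 64.1 and 65.6 CPM in the enhancer KO libraries. The enhancer KO libraries were within 1.53 CPM of each other and all above WT. The mean rose from 49.0 ± 3.04 to 64.7 ± 0.789 CPM (SD, n = 3; log2 fold change 0.40 ± 0.0513, SE; edgeR adjusted p = 0.000150). Cacng7 gave 108, 118 and 118 CPM in the WT libraries and 129, 115 and 125 CPM in the enhancer KO libraries. These ranges overlapped, and its log2 fold change of 0.10 ± 0.0534 (SE) did not pass (edgeR adjusted p = 0.175). It was 0.06 without WT replicate 1, 0.17 with library size alone and 0.21 against WT replicate 1 alone, and passed in none of the 18 alternatives. Cacng5 had 0.427 ± 0.0255 reads per Cacng7 read in WT and 0.527 ± 0.0300 in enhancer KO (SD, n = 3), and these ratios did not overlap.

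The summed level of the 6 TARPs was 297 to 324 CPM in WT, against 349 to 371 CPM in the enhancer KO group. Per kilobase, the summed TARPs stood at 0.484 ± 0.0115 of the summed AMPA receptor subunits in WT and 0.509 ± 0.0132 in enhancer KO (SD, n = 3), or 1.05 times the WT value. These ratios did not overlap, but the nearest libraries, at 0.493 and 0.495 (WT replicate 1 and enhancer KO replicate 2), were closer to each other than the replicates of either group were spread. Without the division by length the ratio of CPM was 0.214 ± 0.00696 and 0.241 ± 0.00478 (SD, n = 3). Per kilobase, Cacng7 made up 50.1% ± 1.36 of the TARPs in WT and 46.5% ± 1.05 in enhancer KO, Cacng2 19.1% ± 1.11 and 19.5% ± 0.347, and Cacng5 13.6% ± 0.529 and 15.6% ± 0.535 (SD, n = 3). The shares of Cacng4, Cacng5 and Cacng7 did not overlap between the groups, and those of Cacng2, Cacng3 and Cacng8 did. The lower share of Cacng7 was not a lower level, since its log2 fold change was 0.10 and did not pass.

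Ordered by level per kilobase of joined exons in WT, Gria1 came first with 81.9 ± 4.93 CPM per kb, followed by Gria4 with 76.9 ± 5.19 and Cacng7 with 47.0 ± 2.28 (SD, n = 3). Gria2 came next with 21 ± 0.621, then Cacng2 with 17.99 ± 1.63, Gria3 with 14.1 ± 0.297 and Cacng5 with 12.8 ± 0.792 CPM per kb. Cacng8 had 6.77 ± 0.708, Cacng4 6.35 ± 0.332 and Cacng3 2.94 ± 0.516 CPM per kb. In WT, Gria1 and Gria4 overlapped over the libraries, as did Cacng8 and Cacng4, and the other neighbours in this order did not. In enhancer KO, Gria2 was seventh, with 15.0 ± 0.573 CPM per kb, behind Cacng2 with 21.1 ± 0.736, Cacng5 with 16.9 ± 0.206 and Gria3 with 15.3 ± 0.383 (SD, n = 3). The libraries of Gria3 and Gria2 overlapped there. With the longest transcript as the length, Gria2 had order 4 in WT and order 5 in enhancer KO.

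Reads on the strand opposite to the genes were few. They made up 0.250% of the stranded reads of Cacng2, 0.223% for Cacng4 and 0.196% for Cacng8, and 0% to 0.115% for the other 7, against 1.62% to 1.88% over all genes of a library. The antisense gene A730060N03Rik shares 323 exon bases with Cacng2 in the annotation and has no row of its own in the count tables.

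**Figure D4:**
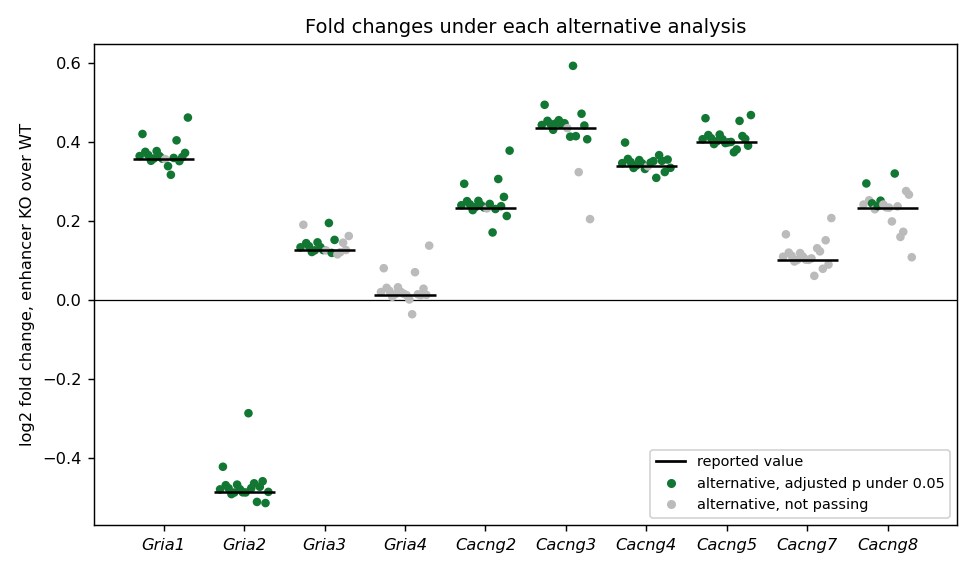
Log2 fold change of each gene, enhancer KO over WT (y axis), as reported (black line) and in 18 alternative analyses (points, green where the adjusted p was under 0.05). All points of Gria2 lie below 0 and those of the other genes above it, apart from 1 point of Gria4 at -0.04.

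The genes whose levels over the 6 libraries were most like those of a member were found among 10310 genes of at least 10 CPM, by the root mean square difference of centred log2 CPM. For Gria2 these were 4833420G17Rik (0.0223), Lyst (0.0250) and Atr (0.0254), with log2 fold changes of -0.52, -0.46 and -0.50. Nearest to Gria1 were Rps6 (0.0265), Pogk (0.0298) and Hk2 (0.0310), of which Rps6 has near-identical copies and its count is less certain. Nearest to Cacng2 were Tm2d1 (0.0219), Orai3 (0.0256) and Gp1bb (0.0269). Among the members, Cacng5 was the closest to Gria1, with a difference of 0.0418 and rank 21. Gria2 was at 0.431 from Gria1 and ranked 9857.

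Other genes that build or anchor AMPA receptors moved in both directions. Of 17 further auxiliary, assembly and synaptic clustering genes, 5 rose and 6 fell, with a median log2 fold change of -0.04. Over all genes tested, 13.4% were called higher and 17.9% lower. Cnih2 and Cnih3 are cornichon genes, whose products escort the receptor out of the endoplasmic reticulum. The mean of Cnih2 was 50.03 ± 3.35 CPM in WT and 62.7 ± 1.39 CPM with the enhancer deleted (SD, n = 3), a rise (edgeR adjusted p = 0.000827). Cnih3, named after its values were seen, averaged 11.1 ± 2.70 and 17.9 ± 1.36 CPM (SD, n = 3), also a rise (edgeR adjusted p = 0.0108). Shisa6, which encodes an auxiliary subunit of the CKAMP family, rose by 0.28 ± 0.0589 on the log2 scale (SE; edgeR adjusted p = 0.00412). The rise was 0.46 against WT replicate 1 alone and 0.21 without WT replicate 1. The family did not move as one. Shisa7 and Shisa8, also named after their values were seen, fell by -0.35 and -0.34 on the log2 scale (edgeR adjusted p = 0.0273 and 0.0127). Shisa9, at 0.10, did not pass (edgeR adjusted p = 0.446).

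Among the falls were 4 genes tied to receptor assembly or the receptor complex. Not every gene of this list fell. Frrs1l, named after its values were seen, rose by 0.17 ± 0.041 on the log2 scale (SE; edgeR adjusted p = 0.00892). Prrt2 averaged 210 ± 5.36 CPM in WT and 140 ± 6.40 CPM in the enhancer KO libraries (SD, n = 3; edgeR adjusted p = 3.07e-06). Prrt1, which encodes the receptor partner SynDIG4, averaged 50.01 ± 4.03 and 35.2 ± 2.52 CPM (SD, n = 3; edgeR adjusted p = 0.000259). Porcn and Cpt1c encode partners of AMPA receptors in the endoplasmic reticulum. Porcn averaged 80.6 ± 5.38 and 52.9 ± 1.69 CPM and Cpt1c 55.9 ± 1.83 and 44.0 ± 2.27 CPM (SD, n = 3), with edgeR adjusted p = 1.14e-05 and 0.000483.

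Of 17 scaffold and trafficking genes, 1 rose, 5 fell and 11 did not pass, with a median log2 fold change of 0.05. These 6 calls of 17 are a share near the 31.3% called over all genes tested. Among the lower genes were Iqsec2, an exchange factor for Arf proteins, Gripap1, Pick1, which binds GluA2 through its PDZ domain, and Dlg1, with log2 fold changes of -0.26, -0.26, -0.29 and -0.16. Dlg4, which encodes PSD-95, averaged 366 ± 15.8 CPM in WT and 409 ± 6.44 CPM with the enhancer deleted (SD, n = 3), a log2 fold change of 0.16 (edgeR adjusted p = 0.0185) that was 0.30 once the gene structure trend was taken out. With library size alone all 5 lower genes lost their calls. The call of Dlg1 was also lost when WT replicate 2 or enhancer KO replicate 1 was left out (edgeR adjusted p = 0.0803 and 0.0857) and once the gene structure trend was taken out (0.0997). That of Dlg4 was lost when WT replicate 2, WT replicate 3 or enhancer KO replicate 1 was left out (edgeR adjusted p = 0.0503, 0.0587 and 0.0630).

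Of 3 RNA editing genes, 0 were called. Adarb1, which encodes ADAR2, the enzyme that edits the marked Gria2 codon, had 277 ± 12.8 CPM in WT, against 293 ± 4.52 CPM in the enhancer KO group, and Adar had 155 ± 11.3 and 145 ± 3.25 CPM (SD, n = 3; edgeR adjusted p = 0.202 and 0.205). Adarb1 was called higher without WT replicate 1 (edgeR adjusted p = 0.0486) and once the gene structure trend was taken out (0.0100). Adar was called lower against WT replicate 1 alone (log2 fold change -0.18, edgeR adjusted p = 0.0317). The calcium channel gamma genes Cacng1 and Cacng6, relatives that are not TARPs, had 0 to 3 reads per library and were not tested.

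**Figure D5:**
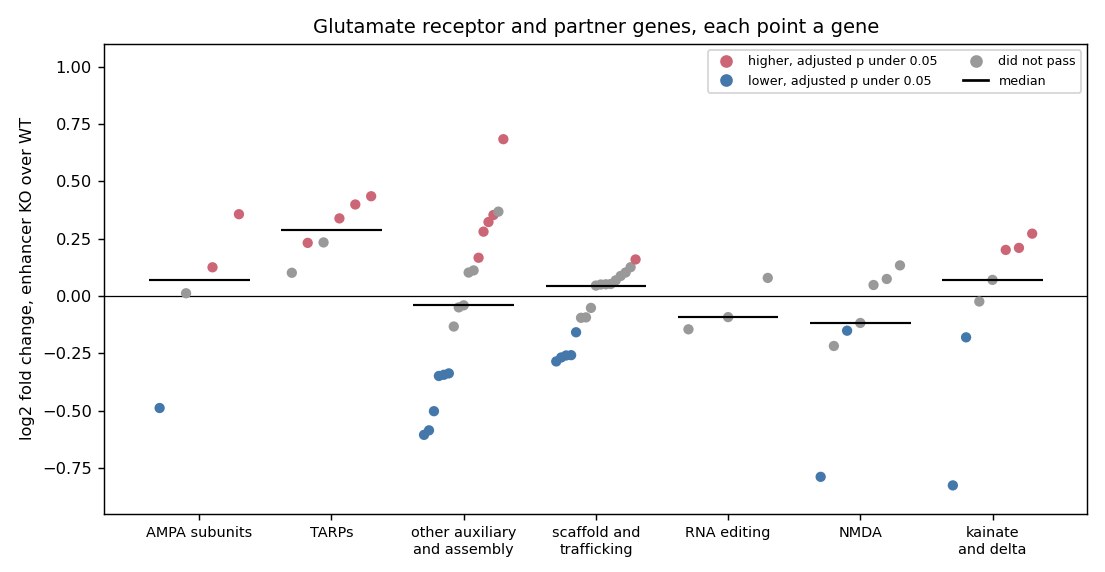
Log2 fold change, enhancer KO over WT (y axis), of each tested gene of the lists on the x axis, coloured by its edgeR call, with the median as a line. The 6 TARP genes all lie above 0, while the other lists hold genes on both sides.

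Other ionotropic glutamate receptor genes were set beside the AMPA receptor genes, and the difference between these lists was not tested. Of 7 NMDA receptor genes, 0 rose and 2 fell, with a median log2 fold change of -0.12. These 2 calls of 7 are a share near the 31.3% called over all genes tested. Grin2c, the NMDA receptor subunit of mature granule neurons, averaged 123 ± 11.9 CPM in WT, against 71.4 ± 11.4 CPM in the enhancer KO group (SD, n = 3; edgeR adjusted p = 0.00723). Against WT replicate 1 alone its fall did not pass (edgeR adjusted p = 0.195). Grin1 averaged 349 ± 17.9 and 314 ± 15.8 CPM (SD, n = 3; edgeR adjusted p = 0.0434). Leaving out any 1 library other than WT replicate 3 ended the call of Grin1, and its log2 fold change, -0.15, was -0.0018 once the gene structure trend was taken out. The call also ended with each other scaling, RLE, library size alone and library size without Rn45s (edgeR adjusted p = 0.0547, 0.463 and 0.0640).

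Of 7 kainate and delta receptor genes, 3 rose and 2 fell, with a median of 0.07, beside 13.4% higher and 17.9% lower over all genes tested. Grik2, a kainate receptor subunit gene, averaged 154 ± 13.7 CPM in WT, against 86.6 ± 9.72 CPM in the enhancer KO group (SD, n = 3; edgeR adjusted p = 0.000453). Grik3, Grik4 and Grid1 had log2 fold changes of 0.27, 0.21 and 0.20, and Grik1 of -0.18. Leaving out WT replicate 2 or enhancer KO replicate 1 ended the calls of Grik4, Grid1 and Grik1, with edgeR adjusted p = 0.0712, 0.0992 and 0.187 and 0.0734, 0.0931 and 0.223. The call of Grik4 also ended without enhancer KO replicate 3 (edgeR adjusted p = 0.0565), and those of Grid1 and Grik1 without WT replicate 3 (0.134 and 0.128) or enhancer KO replicate 2 (0.0896 and 0.129). The call of Grik1 was lost in 13 of 18 alternatives, among them all 3 other scalings, the unstranded column, DESeq2, limma-voom and the fit with the gene structure trend taken out, and was kept in 5.

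Markers of the cells that express these receptors moved in the same libraries. In bulk tissue, fewer cells of a type and less RNA per cell cannot be told apart. Of 12 granule neuron markers 12 fell, with a median log2 fold change of -0.64, and their summed level was 2932 to 3489 CPM in WT, against 1826 to 2248 CPM in the enhancer KO group. Of 12 Purkinje markers 8 rose and 0 fell (median 0.32), with sums of 6069 to 7189 and 8370 to 8776 CPM. Of 10 Bergmann glia and astrocyte markers 4 rose and 0 fell (median 0.26), with sums of 6869 to 6992 and 7997 to 8394 CPM. Of 11 interneuron markers 3 rose and 2 fell (median 0.13), with sums of 1334 to 1482 and 1558 to 1644 CPM. Of 8 oligodendrocyte precursor markers 0 rose and 2 fell (median -0.06), with sums of 890.5 to 923 and 835 to 900.5 CPM. Beside these counts, 13.4% of all genes tested were called higher and 17.9% lower. None of these markers was at 0 in every library. Their part in the changes of the receptor genes was not tested.

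Among other lists, 1 of 7 oligodendrocyte markers rose and 1 fell, 4 of 7 microglial markers rose, and 5 of 6 endothelial markers fell. The same shares over all genes tested, 13.4% higher and 17.9% lower, stand beside the counts in this paragraph. Of 5 choroid plexus markers tested 0 were called, with sums of 1159 to 1823 CPM in WT, against 789 to 1992 CPM in the enhancer KO group. Of 5 forebrain markers tested 1 fell, of 9 midbrain markers 2 rose, of 8 ganglion cell and inner retina markers 0 were called, and of 2 photoreceptor markers 1 rose. Summed over all counted genes of each list, tested or not, the levels in WT and enhancer KO were 54.5 to 57.1 and 48.0 to 49.1 CPM for the forebrain list, 44.7 to 54.3 and 58.5 to 68.6 CPM for the midbrain list, 187 to 190 and 194 to 201 CPM for the ganglion cell and inner retina list, and 7.49 to 8.25 and 9.59 to 13.9 CPM for the photoreceptor list. Most of the photoreceptor sum was Rom1, at 6.04 to 7.16 CPM in WT and 8.46 to 13.1 CPM in enhancer KO. Most of the ganglion cell and inner retina sum was Prkca, at 114 to 129 CPM over all libraries. Most of the forebrain sum was Prox1, at 34.7 to 44.9 CPM. The sums also hide a split among WT libraries. Tfap2d, of the midbrain list, had 3.85, 0 and 0.0888 CPM in WT replicates 1, 2 and 3, against 3.98 to 5.94 CPM in enhancer KO. Lhx2, of the forebrain list, had 3.76, 0.732 and 0.976 CPM, against 3.38 to 3.88 CPM. Otx2, of the midbrain list, was not split so, with 11.3, 10.6 and 13.9 CPM in WT. These genes were named after their values were seen. Fits against WT replicate 1 alone leave out WT replicates 2 and 3. The part of the split among WT libraries was not tested. Of 10 nuclear noncoding RNAs 9 fell, with a median log2 fold change of -1.42. Their sums were 15670 to 18140 CPM in WT, against 6027 to 7417 CPM in the enhancer KO group. The gene not called was Xist, which enters both the median and the sums. It had 1054 CPM in WT replicate 1 and 0.743 to 1.37 CPM in the other libraries.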

How the data were processed

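Bulk RNA-seq of 6 libraries was used, 3 WT and 3 enhancer KO, grouped by their titles. Trimmomatic and STAR, with the mm10 build, are named in the submitters' processing notes, and no source used here gives versions or the annotation. The deposited values are the authors' raw read counts per gene symbol, unnormalized, with an unstranded column and one for each strand. Column 4 was used. The 4 rows that name no gene held 36.1% to 61.8% of all reads and entered neither library sizes nor tests. Reads that align to several places are among them, which makes genes with close copies uncertain.

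Genes were kept by filterByExpr, scaled by TMM and tested across all 15846 genes with edgeR 4.0.16 (R 4.3.3; robust quasi-likelihood test, two-sided, Benjamini-Hochberg adjustment, threshold 0.05). The SE was derived from the fold change and its F statistic. Fits were tested on simulated data. Gene lengths, positions and coding sequences came from GENCODE mouse release 21, matched to 23331 symbols and to 667 by an older symbol. For 413 no match was made. Lists of genes are described by counts and medians only.

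Named were all 10 members, of each pathway list the called genes, at most 6 and by smallest p, or 2 by abundance where none was called, and the 3 genes most like Gria1, Gria2 and Cacng2. A gene that this rule names is not reported here. The likeness measure added 0.5 to each CPM. The members and lists were chosen with earlier results of these data known. Alternatives were RLE scaling, library size alone or without Rn45s, other filters on low counts, a replicate block, the unstranded column, DESeq2 1.42.0, limma-voom (limma 3.58.1), a minimum fold of 1.2, removal of a gene structure trend (mgcv 1.9.3), and leaving out libraries.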

Additional observations from a re-analysis of the deposited data

How the results depend on the processing

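Gria2 was lower and Cacng5 higher, past the threshold, in all 18 alternatives, with log2 fold changes from -0.52 to -0.29 and from 0.37 to 0.47. Gria1, Cacng2 and Cacng4 kept their calls in 17, losing them only with a minimum fold of 1.2. Cacng3 kept its call in 15 and Gria3 in 11. Gria4 changed sign when WT replicate 1 was left out, and ran from -0.0365 to 0.0702 over the fits without 1 library. Adar changed sign once the gene structure trend was taken out (0.0144). The test against a minimum fold of 1.2 called 991 genes in place of 4964. Of the 991, 83 were higher, and the members called were 1 higher (Cacng5) and 1 lower (Gria2). That test asks for a larger change. Without WT replicates 2 and 3 together, 3129 genes were called, with fewer libraries. There 4 members were higher, as without WT replicate 3. No pairing by replicate number was seen, since the deviations of same-numbered libraries correlated at 0.05, -0.04 and -0.08. Differently numbered libraries ran from -0.10 to 0.12. With 3 libraries per group, this check cannot exclude a pairing. With the replicate block 4596 genes were called, 7 members were higher and 1 lower. Depth limits Cacng3 most, with 159 reads in WT replicate 2.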
